A study of Mus musculus with 17 samples.

Results

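Gene ends held by LIN54, the DNA-contacting subunit of the MuvB core, were set against those held by the pocket protein p130 in Stag2-WT bladder lining. Both proteins were mapped by CUT&RUN, a method that cuts and sequences short DNA fragments at the sites where an antibody sits on chromatin. The libraries compared here were 3 made with the LIN54 antibody and 3 made with the p130 antibody, out of 15 libraries with a peak list in the series. All 6 came from peeled urothelium, the epithelial lining of the mouse bladder, of Stag2-WT animals, which keep the cohesin gene Stag2. Tissue was taken 1 week after TMX induction, and about 500000 cells went into each experimental condition. The 3 LIN54-WT libraries belong to batch 1, p130-WT replicate 1 to batch 2 and p130-WT replicates 2 and 3 to batch 3, so antibody and batch cannot be told apart. The labels call the replicates biological and do not name the Cre driver, the strain or the age of the animals or say whether animals were pooled, and p-values measure only the spread between these libraries.

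A gene was counted as marked in a library when the summit of a deposited peak lay within 500 bp of either of its ends, over the 20665 protein-coding genes of chromosomes 1 to 19. Genes marked in all 3 libraries of an antibody and in none of the other antibody formed the sets LIN54 alone (293 genes, 1.42% of all) and p130 alone (186 genes, 0.9%). Genes marked in all 6 libraries formed the set of both antibodies (1759 genes, 8.51%). The deposited lists reach an unadjusted significance level of 0.05 and mark 39.96% to 50.8% of all genes in a library, so the same sets were also counted with peaks at q of at most 0.01, the p-value that MACS2 adjusted for the number of tests. At that threshold they held 614 genes (2.97%), 13 genes (0.0629%) and 122 genes (0.59%).

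DREAM is the complex that keeps cell cycle genes silent in resting cells. It joins the MuvB core, in which LIN54 is the subunit that contacts DNA, to the pocket protein p130 (encoded by Rbl2) and to E2F4 with a DP partner. LIN54 is known to bind the CHR element (TTTGAA) found at genes of G2 and mitosis, whereas p130 reaches DNA mainly through E2F sites, which are frequent at genes of the G1/S transition. In dividing cells, MuvB is known to leave p130 and to work with B-MYB and FOXM1 at mitotic genes.

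Promoters of each set are printed here as examples, since LIN54 and E2F-bound p130 are known to read different short motifs. They come from RefSeq (build GRCm38.p6, the assembly that mm10 names), run 5′ to 3′ in the direction of the gene and hold 250 bases before and 50 after a RefSeq start. Capitals mark, on both strands, the CHR TTTGAA, the E2F sites TTTCCCGC, TTTGGCGC, TTTCGCGC and TTTGCCGC, and the CCAAT box. Of 16457 promoters in the table, 15.9% hold the CHR letters, 2.95% an E2F site and 39.1% a CCAAT box, and a match is only a description. A second CHR form, TTTAAA, was also searched, is in 11.7% of promoters and is not capitalised. Below, CHR letters means TTTGAA unless TTTAAA is named. Mark2 stands for LIN54 alone, Mcm7 and Rrm2 for p130 alone, Top2a and Fbxo5 for mitotic genes of both antibodies, Asf1b for a replication gene of both and Pold3 for the only replication gene of LIN54 alone.
Mark2: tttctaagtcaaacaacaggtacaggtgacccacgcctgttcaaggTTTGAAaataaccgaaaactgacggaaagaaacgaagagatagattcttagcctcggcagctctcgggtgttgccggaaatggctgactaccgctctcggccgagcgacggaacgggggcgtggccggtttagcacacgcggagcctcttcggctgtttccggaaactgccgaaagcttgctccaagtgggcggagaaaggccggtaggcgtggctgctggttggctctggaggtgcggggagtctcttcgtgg
Pold3: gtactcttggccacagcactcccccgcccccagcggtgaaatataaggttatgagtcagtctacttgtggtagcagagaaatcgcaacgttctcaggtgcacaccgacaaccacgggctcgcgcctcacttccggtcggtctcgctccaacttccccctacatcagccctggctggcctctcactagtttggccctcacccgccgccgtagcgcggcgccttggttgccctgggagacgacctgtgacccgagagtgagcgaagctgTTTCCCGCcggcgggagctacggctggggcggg
Mcm7: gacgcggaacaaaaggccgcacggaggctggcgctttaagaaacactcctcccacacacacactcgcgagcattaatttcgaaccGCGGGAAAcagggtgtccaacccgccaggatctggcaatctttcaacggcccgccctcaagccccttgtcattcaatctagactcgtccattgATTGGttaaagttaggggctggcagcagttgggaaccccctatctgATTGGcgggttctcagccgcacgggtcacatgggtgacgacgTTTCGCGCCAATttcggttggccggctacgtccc
Rrm2: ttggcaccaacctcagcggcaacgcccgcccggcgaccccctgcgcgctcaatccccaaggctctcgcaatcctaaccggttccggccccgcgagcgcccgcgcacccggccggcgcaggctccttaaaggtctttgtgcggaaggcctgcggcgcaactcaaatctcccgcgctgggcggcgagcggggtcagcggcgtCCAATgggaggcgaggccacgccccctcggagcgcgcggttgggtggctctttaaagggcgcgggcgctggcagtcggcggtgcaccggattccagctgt
Top2a: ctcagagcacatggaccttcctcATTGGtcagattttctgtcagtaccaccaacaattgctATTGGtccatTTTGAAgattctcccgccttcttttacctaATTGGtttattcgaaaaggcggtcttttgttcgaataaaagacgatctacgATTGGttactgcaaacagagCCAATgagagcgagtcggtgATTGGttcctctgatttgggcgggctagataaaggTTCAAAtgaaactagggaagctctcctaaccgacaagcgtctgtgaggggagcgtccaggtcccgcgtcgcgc
Fbxo5: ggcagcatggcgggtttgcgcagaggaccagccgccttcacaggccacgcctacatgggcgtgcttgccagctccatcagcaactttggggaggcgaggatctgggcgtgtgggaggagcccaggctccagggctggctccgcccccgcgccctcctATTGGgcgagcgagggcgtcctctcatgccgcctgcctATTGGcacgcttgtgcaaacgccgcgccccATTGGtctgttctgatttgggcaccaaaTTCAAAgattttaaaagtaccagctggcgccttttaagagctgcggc
Asf1b: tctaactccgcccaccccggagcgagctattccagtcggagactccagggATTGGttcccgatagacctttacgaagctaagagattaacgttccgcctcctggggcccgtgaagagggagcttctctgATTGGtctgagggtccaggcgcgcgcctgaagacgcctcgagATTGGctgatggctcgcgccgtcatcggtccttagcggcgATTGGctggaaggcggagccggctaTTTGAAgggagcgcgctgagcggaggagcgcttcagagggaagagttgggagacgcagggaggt

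The sequences lie at chr19:7341811-7342110 (minus strand), chr7:100121453-100121752 (minus), chr5:138171834-138172133 (minus), chr12:24708004-24708303 (plus), chr11:99024140-99024439 (minus), chr10:5805416-5805715 (minus) and chr8:83955444-83955743 (plus). In the Mcm7 sequence, the p130 summits fell at -76, -36 and -53 bases from the RefSeq start (minus meaning upstream), between its E2F sites at -165 (GCGGGAAA, read on the other strand) and 17 (TTTCGCGC). The last base of the second site is the first of a CCAAT box at 24. In the Top2a sequence, the LIN54 summits fell at -107, -82 and -99 and the p130 summits at -72, -79 and -53, between CHR letters at -179 and -23. In the Rrm2 sequence, which holds a CCAAT box and neither TTTGAA nor E2F letters, the p130 summits fell at -21, -28 and -32. The second CHR form, TTTAAA, does occur in the Rrm2 sequence, and also in that of Fbxo5. In the Mark2 sequence the CHR letters lie at -204 and the LIN54 summits at 92, 24 and 71. CHR letters were in 13.6% of promoters of LIN54 alone (32 of 235), beside 15.9% over all promoters. Mark2, Rrm2 and Top2a were added to these examples after their values were seen.

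The 6 lists differed in size and quality. LIN54-WT libraries held 366841, 373428 and 379179 peaks, and p130-WT libraries 539200, 359462 and 356035. At q of at most 0.01, the LIN54-WT lists held 4729, 6512 and 2134 peaks on chromosomes 1 to 19, against 393, 886 and 442 in the p130-WT lists, and every LIN54 library was above every p130 library (two-sided exact permutation p = 0.1, the smallest that 3 against 3 libraries allow, so no comparison of libraries here can reach 0.05). Read depth is not in the lists, but fold and p at the summits imply a lowest background coverage of 1.41, 1.28 and 1.46 fragments in LIN54-WT and 1.63, 1.44 and 1.48 in p130-WT. A gene without a peak was not detectable as marked at that depth. Peaks on the X chromosome made up 3.16% to 5.09% of the LIN54-WT lists, and 5.98%, 0.440% and 0.465% of those of p130-WT replicates 1 to 3. By this share and by its number of peaks, p130-WT replicate 1 stood apart from replicates 2 and 3. Without it, LIN54 alone held 558 genes and p130 alone 433, and the difference in log2 number of peaks on chromosomes 1 to 19 was 0.00632 in place of -0.16.

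Of the 5118 genes marked in all 3 LIN54-WT libraries (24.8% of all genes), 34.4% were also marked in all 3 p130-WT libraries. Of the 3105 genes marked in all 3 p130-WT libraries (15%), 56.7% were also marked in all 3 LIN54-WT libraries. At q of at most 0.01, all LIN54-WT libraries marked 1022 genes (4.95%), of which 11.9% were also marked in all p130-WT libraries. All p130-WT libraries marked 166 genes (0.803%) at that threshold, of which 73.5% were also marked in all LIN54-WT libraries. Among the 614 genes of LIN54 alone at that threshold, 311 had a deposited p130 peak reaching into the window in all 3 p130-WT libraries, and 607 in at least 1. The share of all genes with such a reaching peak is not given here. By summits alone, 15% of all genes were marked in all 3.

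**Figure D1:**
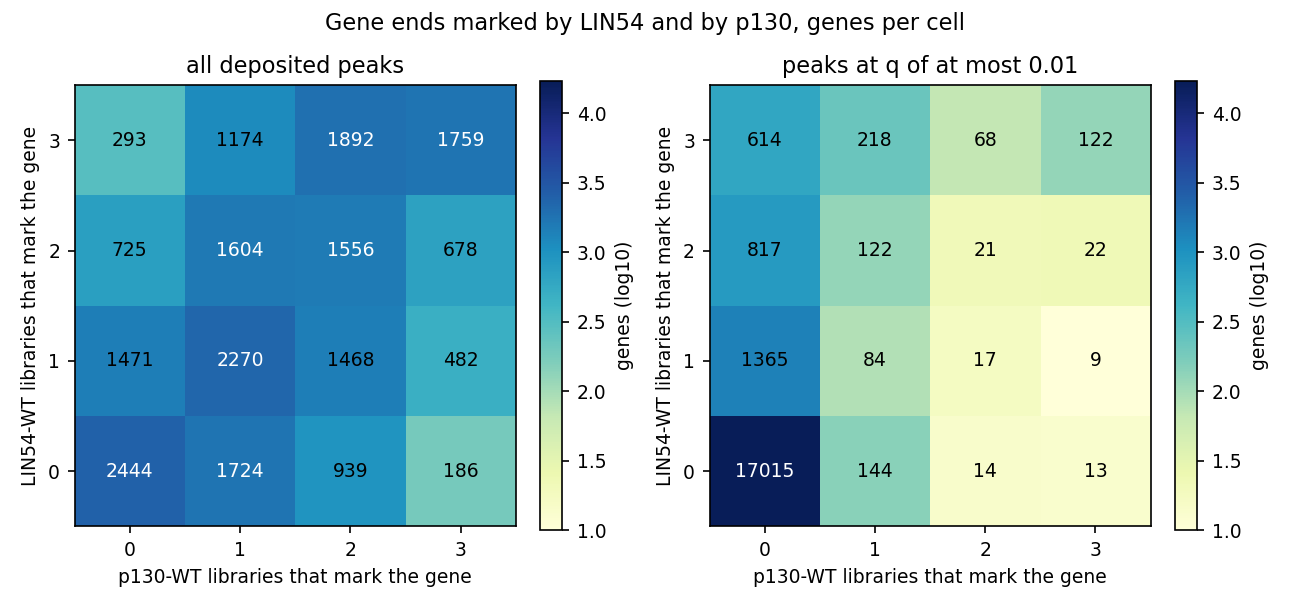
Number of genes by how many LIN54-WT libraries (vertical axis, 0 to 3) and how many p130-WT libraries (horizontal axis, 0 to 3) marked them, for all deposited peaks (left) and for peaks at q of at most 0.01 (right); shading is the log10 number of genes. The corners hold the 293 genes of LIN54 alone (top left), the 186 of p130 alone (bottom right) and the 1759 of both (top right), and at q of at most 0.01 these corners hold 614, 13 and 122.

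A set rests on the absence of a summit, but weaker or neighbouring peaks of the other antibody lay at many of its genes. Such peaks were common at any gene. Single p130-WT libraries marked 39.96% to 48.8% of all genes within 500 bp, and single LIN54-WT libraries 46.9% to 50.8%. The counts that follow have no share over all genes beside them, so they are not read as a trait of the sets. Among the 293 genes of LIN54 alone, 210 had a p130 summit within 1000 bp of an end in at least 1 p130-WT library and 24 in all 3, and at 110 a p130 peak reached into the 500 bp window. Among the 186 genes of p130 alone, 136 had a LIN54 summit within 1000 bp in at least 1 LIN54-WT library and 21 in all 3, and at 72 a LIN54 peak reached into the window. When any part of a peak counted, 273 genes were marked by LIN54 alone and 186 by p130 alone. Under the strictest reading, with q of at most 0.01 in all libraries of an antibody and no deposited summit of the other in the window, LIN54 alone kept 12 genes and p130 alone kept 2. At 5 of the 12 a p130 peak still reached into the window in at least 1 library, and at both of the 2 a LIN54 peak did so in all 3. A gene may be marked at different ends in different libraries, which is said below where folds are given.

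LIN54 alone was led by Mark2, a kinase gene of cell polarity at chr19:7275396-7341860. Genes of the set were ranked by fold. The authors' fold enrichment over background was 16.6, 12.6 and 16.3 at the 5′ end of Mark2 in LIN54-WT replicates 1 to 3. No p130-WT library had a peak within 500 bp of it. The nearest p130 summits lay at -1852, 1961 and 4200 bp from that end (positive values run into the gene), with folds of 2.25, 2.11 and 2.49. This end was the best ranked of the set. H2-Ab1, an MHC class II gene of antigen presentation (chr17:34263227-34269418), came next with LIN54 folds of 6.48, 5.95 and 4.79. Sox12, a transcription factor gene, followed with folds of 3.95 to 8.37, and then Rab11a, a gene of recycling endosomes (chr9:64715300-64737756), with 6.66, 5.96 and 4.31. Zmiz2 had 4.53, 6.55 and 4.90. Ppcs, of coenzyme A synthesis, and the lysosomal protease gene Tpp1 ranged from 3.38 to 9.09, and Ift52, which serves transport in cilia, came last of the 8 best ranked with 4.37, 5.55 and 4.56. When any part of a peak counted, Rab11a, Tpp1 and Ift52 were no longer in LIN54 alone.

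The 12 genes of LIN54 alone under the strictest reading were Mark2, H2-Ab1, Rab11a, Zmiz2, Ift52, Psmd8, Ostc, Clcn3, Isoc2a, Rbm42 and the neighbours Pcsk4 and Reep6, which share an end. None of them stands in the G2/M or G1/S list. Their functions are scattered, with Psmd8 a subunit of the proteasome, Ostc of the enzyme that adds sugar chains to new proteins and Clcn3 a chloride transporter. Names beyond the 8 best ranked were given after their values had been seen.

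LIN54 alone held 0 of 76 G2/M genes and 1 of 84 G1/S genes (1.19%), shares near the 1.42% of all genes. The replication gene was Pold3, a subunit of DNA polymerase delta, with LIN54 folds of 2.66, 6.82 and 3.83 and no p130 summit within 500 bp. The nearest p130 summits to the Pold3 end lay at -2411, -5264 and -560 bp, and when any part of a peak counted Pold3 was no longer in LIN54 alone. Of 73 cytosolic ribosomal protein genes, 5 were in LIN54 alone (Rpl5, Rps26, Rps24, Rps10 and Rps18), and Rps26 had LIN54 folds of 6.13, 3.87 and 2.02. Members of the urothelial and immediate early lists had folds below 4. Gata3, a transcription factor of the urothelium, had LIN54 folds of 2.36, 2.23 and 2.48, the cornified envelope gene Sprr1a 3.58, 3.64 and 3.68, and the AP-1 gene Jund 2.87, 2.32 and 3.40.

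Under q of at most 0.01 the picture of LIN54 alone was wider, since p130 peaks that failed the threshold no longer counted. Its 614 genes held 6 of 27 immediate early genes, which growth signals and stress switch on within minutes (22.2%, beside 2.97% of all genes). These were Atf3, Fosb, Zfp36, Klf2, Klf10 and Hspa1a. Klf10, a zinc finger repressor gene, had folds of 8.76, 10.3 and 6.50 with LIN54 and of 2.64, 3.60 and 3.63 with p130. Fosb, an AP-1 gene, had 8.09, 7.91 and 5.39 with LIN54, against 2.36 (at its 3′ end) and 3.32 with p130 and no p130 summit in replicate 3. Hspa1a has a near-identical copy, Hspa1b, and reads of the pair may not have been told apart.

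The 614 genes also held 6 of 73 ribosomal protein genes (8.22%), among them Rpl13a, Rpl41, Rpl35a, Rpl24 and Rps14. Rpl13a had folds of 6.25, 7.44 and 7.76 with LIN54, and of 2.50 and 3.15 with p130, with no p130 summit in replicate 3. Cell cycle genes among the 614 were 2 of 76 G2/M genes (2.63%, Cdca3 and Ccnb2, which encodes cyclin B2) and 3 of 84 G1/S genes (3.57%, among them Mcm10 and Orc6). Both shares were near the 2.97% of all genes. Cdca3, which promotes entry into mitosis, had folds of 10.4, 16.5 and 5.59 with LIN54 and of 2.64, 2.95 and 4.07 with p130. Orc6, of the complex that marks replication origins, had 6.66, 9.59 and 4.66 with LIN54 and 3.01, 3.55 and 3.63 with p130.

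p130 alone was led by replication genes. The end with the highest folds lay between Mcm7, a subunit of the helicase that unwinds DNA for replication (chr5:138164583-138172111), and Ap4m1 on the opposite strand (chr5:138172021-138180429), whose ends overlap. No LIN54-WT summit lay within 500 bp of it, and the p130 folds were 13.6, 6.45 and 12.8 in p130-WT replicates 1 to 3. LIN54 was not absent, however. Its summits lay 964, 957 and 924 bp into Mcm7, with folds of 7.88, 8.75 and 5.37 and q of at most 1.93e-05, and those peaks were 1504, 1594 and 1321 bp wide and covered the gene end. The p130 summits lay 152, 192 and 175 bp into the gene. When any part of a peak counted, Mcm7 and Ap4m1 were in the set of both antibodies, so at this end the antibodies differed in the place of the summit.

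Mcm6, another subunit of the helicase (chr1:128331575-128359705), had no LIN54 summit at its ends and p130 folds of 4.78, 4.29 and 3.15. The nearest LIN54 summits lay at 1398, -574 and 2237 bp from the marked end, with folds of 2.41, 1.79 and 2.79, beside a median fold of 2.30 to 2.33 over all peaks of these libraries. Rrm2, the small subunit of ribonucleotide reductase, which makes deoxynucleotides (chr12:24708254-24714146), had no LIN54 summit either and p130 folds of 7.21, 3.47 and 3.72. The nearest LIN54 summits were at 915, -1560 and -9761 bp. At Mcm6 the p130 summits lay at -112, -15 and 74 bp from the marked end, so in both genes they stayed close to it across batches 2 and 3. When any part of a peak counted, neither gene was in p130 alone. Of the G1/S list, these 3 genes were in p130 alone (3 of 84, beside 0.9% of all genes), and of the G2/M list 0 of 76 were.

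Below these genes the set thinned out. Iqgap3, a scaffold gene used in dividing cells, had no LIN54 summit and p130 folds of 3.69, 4.79 and 3.05. Lpcat2b, Gm33700 and Irf5, an interferon response factor, completed the 8 best ranked with p130 folds of 2.28 to 4.10. The set held 9 of 1104 olfactory receptor genes (0.815%), which are used in the nose and stand here for genes with no role in the bladder, close to the 0.9% of all genes. LIN54 alone held 4 of them (0.362%, beside 1.42%). Of 12 fibroblast markers, Pdgfrb was in LIN54 alone, Fap in p130 alone and Col1a1 in both.

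At q of at most 0.01 p130 alone held 13 genes, and cell cycle genes were frequent among them. They were E2f1, Brip1, Cdc6, Mcm7 with Ap4m1, Cdk1, Cdkn3, Pclaf, Srsf10, Zfp689, Ccdc82, Fbxl20 and Gpr180, all named after their values were seen. Of 84 G1/S genes 4 were in this set (4.76%, beside 0.0629% of all genes), and of 76 G2/M genes 2 (2.63%). E2f1, the activator of G1/S genes, had LIN54 folds of 2.92, 2.32 and 2.79, and p130 folds of 5.87, 6.38 and 7.32. The LIN54 folds of replicates 1 and 2 belong to its 3′ end and the p130 folds to its 5′ end, where the nearest LIN54 summit of replicate 1 lay 1399 bp away. Brip1, a helicase of DNA repair, had 3.13, 3.52 and 2.17 with LIN54, and 8.95, 10.0 and 9.19 with p130. Cdk1, the kinase that drives mitosis, had 3.46, 3.52 and 2.91 with LIN54, and 6.51, 6.45 and 5.53 with p130. Pclaf, which binds PCNA at replication forks, had 3.32, 2.23 and 2.87 with LIN54, and 6.08, 7.18 and 11.0 with p130, where the LIN54 fold of replicate 3 belongs to the 3′ end. In these 4 genes all LIN54 folds were below all p130 folds, which the choice by q fixes in part. At Brip1 and Cdk1 a LIN54 peak that missed q 0.01 lay at the same end as p130 in all 3 LIN54-WT libraries.

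Rbl1, which encodes the p130 relative p107, came next to this set. It had a LIN54 fold of 1.79 in replicate 2 and no LIN54 summit in replicates 1 and 3, and p130 folds of 3.73, 6.01 and 4.82. Across the G1/S list, Pold3, Rad51ap1, Chaf1b and Uhrf1 were marked in all 3 LIN54-WT libraries and in at most 1 p130-WT library. The mirror image, all 3 p130-WT libraries and at most 1 LIN54-WT library, held Mcm6, Mcm7, Rrm2, Rbl1, Cdca7, Clspn, Mcm2, Blm and Rrm1, the partner of Rrm2. In the G2/M list these groups were Aspm and Cdc20 for LIN54, and Bub1b, Ncapg and Foxm1 for p130. Of all genes, 1.42% were marked in all 3 LIN54-WT libraries and no p130-WT library. A further 5.68% were marked in all 3 LIN54-WT libraries and 1 p130-WT library. For the mirror image these shares were 0.9% and 2.33%. Both LIN54 groups were below such shares and the G2/M group of p130 was near them. Only the G1/S group of p130 was clearly above, which was not tested.

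**Figure D2:**
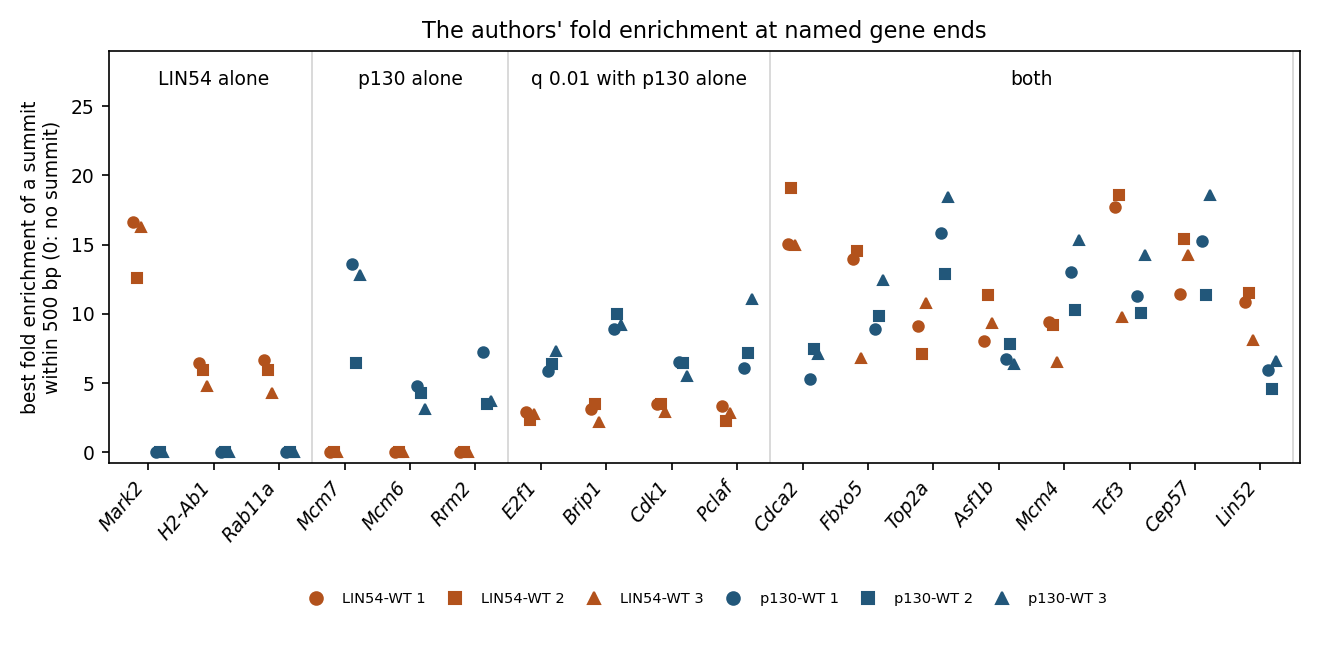
The authors' fold enrichment (vertical axis) of the best summit within 500 bp of an end of each named gene (horizontal axis), a value of 0 meaning no summit there, while a peak may still reach in, as LIN54 peaks do at Mcm7; orange marks are LIN54-WT and blue marks p130-WT libraries, and shapes are replicates 1 to 3. At Mark2 LIN54 reached 16.6, 12.6 and 16.3 with no p130 summit, at Mcm7 p130 reached 13.6, 6.45 and 12.8 with no LIN54 summit in the window, and at E2f1, Brip1, Cdk1 and Pclaf the LIN54 folds lay below the p130 folds.

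The set of both antibodies held many mitotic and replication genes. Of 76 G2/M genes 38 were marked in all 6 libraries (50%, beside 8.51% of all genes), and of 84 G1/S genes 30 (35.7%). Of these lists, 2 G2/M genes (Cdc25b and Sgo1) and 1 G1/S gene (Tyms, thymidylate synthase) had no summit in any of the 6 libraries, beside 11.8% of all genes. Of 16 genes in the list of MuvB, DREAM and partner subunits 5 were in the set, which were Lin52, Rbbp4, E2f3, Mybl1 and Dyrk1a. That list is wider than DREAM, as it also holds genes such as Rb1 and E2f3. Immediate early genes followed with 11 of 27 (40.7%) and ribosomal protein genes with 18 of 73 (24.7%). The set held 2 of 26 luminal genes (Klf5 and Upk1b, a uroplakin of the bladder surface), 0 of 14 basal urothelial genes and 2 of 1104 olfactory receptor genes.

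At q of at most 0.01 in all 6 libraries, the G2/M genes were Cdca2, Fbxo5, Ect2, Tubb4b, Top2a, Fam83d, Cks1b and Cdc25c (8 of 76, 10.5%, beside 0.59% of all genes). Cdca2, a phosphatase partner on mitotic chromosomes that shares its end with Kctd9, had folds of 15.0, 19.1 and 15.0 with LIN54 and of 5.32, 7.43 and 7.11 with p130. Top2a, the topoisomerase that untangles sister chromosomes, went the other way, with 9.12, 7.09 and 10.8 with LIN54 and 15.8, 12.9 and 18.5 with p130. At Fbxo5, an inhibitor of the anaphase-promoting complex, the ranges overlapped, with 13.9, 14.5 and 6.81 with LIN54 and 8.94, 9.82 and 12.4 with p130. Ect2, an activator of cytokinesis, had 7.77, 10.1 and 11.0 with LIN54 and 10.7, 7.79 and 12.5 with p130. Folds are scaled within each library, so these values describe and were not tested between antibodies.

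The G1/S genes at that threshold were Asf1b, Gins2, Mcm3, Mcm4, Cdc25a and Tcf19 (6 of 84, 7.14%). Gins2, of the replicative helicase complex, had folds of 12.2, 11.9 and 9.38 with LIN54 and of 4.43, 7.63 and 7.14 with p130. Mcm4, a helicase subunit that shares its end with the DNA repair kinase gene Prkdc, had 9.40, 9.20 and 6.50 with LIN54 and 13.1, 10.2 and 15.3 with p130. Mcm3 likewise had 4.46, 5.33 and 5.57 with LIN54 and 14.6, 7.85 and 8.14 with p130. Asf1b, a histone chaperone, had 8.03, 11.4 and 9.31 with LIN54 and 6.78, 7.85 and 6.40 with p130.

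Genes of the MuvB, DREAM and partner list were among the shared ends. Lin52, a MuvB subunit, had folds of 10.9, 11.5 and 8.13 with LIN54 and of 5.98, 4.55 and 6.59 with p130. E2f3, an activating E2F, had 8.82, 8.92 and 9.82 with LIN54 and 3.79, 6.40 and 7.02 with p130. Both were at q of at most 0.01 in all 6 libraries, and at both every LIN54 fold was above every p130 fold. The gene of LIN54 itself (Lin54) had LIN54 folds of 3.61, 2.97 and 3.14, and a p130 peak in replicate 2 only, with a fold of 4.38. Rbl2, the gene of p130, had LIN54 peaks in replicates 1 and 2 (3.42 and 4.01) and a p130 peak at its 3′ end in replicate 2 (3.60). Tfdp1, which encodes the DP1 partner, had no summit in any of the 6 libraries.

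Outside the lists, the best ranked shared ends were Tcf3, Cep57 with Fam76b, Fiz1 with Zfp524, Pcx and the Cdca2 and Kctd9 pair. Tcf3, which encodes the E-box factor E2A, had folds of 17.8, 18.6 and 9.75 with LIN54 and of 11.3, 10.1 and 14.3 with p130. Cep57, a centrosome gene, had 11.4, 15.4 and 14.2 with LIN54 and 15.3, 11.3 and 18.6 with p130. At Cep57 the LIN54 summits lay 120, 108 and 118 bp and the p130 summits 119, 157 and 142 bp from its 5′ end. Of these genes only Cdca2 stands in a list.

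Relative to all other genes, LIN54 had lower odds ratios than p130 on both cell cycle lists. The measure was the log2 odds ratio, per library, of a list gene being marked against all other genes. For G2/M genes it was 1.97, 2.20 and 1.75 in LIN54-WT and 2.36, 2.59 and 3.26 in p130-WT, with 60, 63 and 57 of 76 genes marked by LIN54 and 62, 65 and 66 by p130. All LIN54 libraries were below all p130 libraries (difference -0.76, two-sided exact permutation p = 0.1). The libraries overlapped with a window of 1000 bp (-0.73) and with a peak anywhere in the window (-0.58, exact permutation p = 0.2 for each). For G1/S genes it was 1.24, 1.61 and 1.33 in LIN54-WT and 1.91, 2.36 and 2.16 in p130-WT, again without overlap (difference -0.75, exact permutation p = 0.1). The G2/M list minus the G1/S list within each library did not separate the antibodies, at 0.73, 0.58 and 0.42 in LIN54-WT and 0.45, 0.23 and 1.10 in p130-WT (difference -0.02, exact permutation p = 0.9). Adjusted over 14 lists, the p of both cell cycle lists was 0.467 (exact permutation).

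Ribosomal protein genes went the other way. LIN54-WT libraries marked 61, 62 and 59 of 73, with log2 odds ratios of 2.40, 2.40 and 2.23, and p130-WT libraries marked 42, 50 and 47, with 0.68, 1.18 and 1.43 (difference 1.25, exact permutation p = 0.1, adjusted 0.467). The libraries overlapped at q of at most 0.01 (0.58) and with a window of 1000 bp (0.87, exact permutation p = 0.2 for each). For immediate early genes the values overlapped, at 1.55, 1.68 and 2.99 in LIN54-WT and 0.98, 1.27 and 2.04 in p130-WT (difference 0.64, exact permutation p = 0.4). The 16 genes of the MuvB, DREAM and partner list also overlapped, at 1.16, 1.90 and 1.25 in LIN54-WT and 0.94, 0.76 and 1.65 in p130-WT (difference 0.32, exact permutation p = 0.5). Olfactory receptor genes were depleted with both, at -1.77, -1.97 and -1.58 in LIN54-WT and -0.90, -1.76 and -1.01 in p130-WT (difference -0.55, exact permutation p = 0.2).

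Binding of these factors does not identify a cell type, so the tissue label could be read only through where peaks lay. The luminal urothelial list had log2 odds ratios of 0.39 to 1.56 in LIN54-WT and of -0.15 to 1.02 in p130-WT, and the basal list of -1.54 to -0.04 in LIN54-WT and -2.25 to -0.14 in p130-WT. Immune markers were at -2.14 to -0.83 in LIN54-WT and -1.15 to 0.20 in p130-WT, and of 14 immune markers only Cd68, whose end lies beside Eif4a1, was in LIN54 alone and none was in p130 alone. Smooth muscle and endothelial markers had 0 genes in any of the 3 sets, with log2 odds ratios of -1.14 to 0.62 and -2.57 to 0.71 in LIN54-WT, against -0.51 to 0.25 and -2.08 to -0.46 in p130-WT. Fibroblast markers were at -0.35 to 0.63 in LIN54-WT and -0.33 to 0.99 in p130-WT. p53 targets were at 0.09 to 1.45 in LIN54-WT and 0.31 to 0.63 in p130-WT, and genes of other tissues at -2.41 to -1.16 in LIN54-WT and -1.79 to -0.31 in p130-WT. Any part of other cell types in the comparison was not tested.

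**Figure D3:**
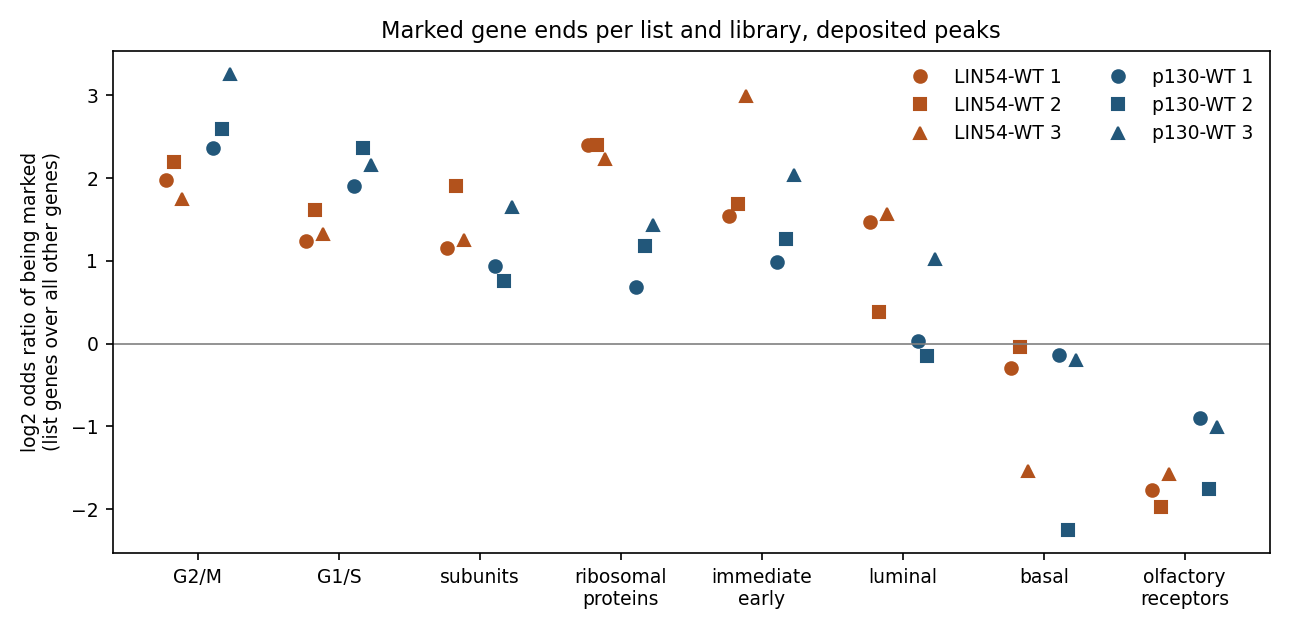
Log2 odds ratio of being marked for 8 gene lists (horizontal axis), 1 point per library, with LIN54-WT in orange left of p130-WT in blue and shapes for replicates 1 to 3; the grey line at 0 is the rate of all other genes. The G2/M and G1/S points of p130 lie above those of LIN54, the ribosomal protein points of LIN54 (2.23 to 2.40) lie above those of p130 (0.68 to 1.43), and the other lists overlap.

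Cell cycle genes also separated the antibodies at the strongest ends. In the 300 gene ends with the lowest p of each library, a cut chosen after the data had been seen, LIN54-WT libraries held 7, 6 and 6 G2/M genes, against 19, 12 and 19 in p130-WT libraries. They held 3, 3 and 4 G1/S genes, against 20, 19 and 20 in p130-WT (differences -10.3 and -16.3, exact permutation p = 0.1 for each, adjusted over the lists 0.467). These ends are 300 of 20665 genes, and every library of either antibody held a larger share of the 76 G2/M and 84 G1/S genes than that. At q of at most 0.01, LIN54-WT libraries marked 2225, 2813 and 1467 genes and p130-WT libraries 263, 700 and 343. The best 300 of p130-WT replicate 1 and the best 1000 of every p130-WT library thus include ends that missed that threshold. No LIN54-WT end in either cut missed it. In the best 1000 ends, LIN54-WT held 15, 17 and 17 G2/M genes and 11, 14 and 10 G1/S genes, and p130-WT held 33, 30 and 34 and 29, 32 and 34. Immediate early genes in the best 1000 numbered 10, 9 and 7 for LIN54 and 4, 6 and 6 for p130 (exact permutation p = 0.1, adjusted 0.467), and ribosomal protein genes 9, 8 and 4 for LIN54 and 6, 8 and 8 for p130. The best 1000 ends of 2 LIN54-WT libraries shared 618 to 724 genes, those of 2 p130-WT libraries 366 to 422 and those of a LIN54-WT with a p130-WT library 312 to 435. The range within p130 overlapped the range between the antibodies.

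Promoter letters, which played no part in the choice of genes, differed in the same ends. Of the 300 best ends, those with a promoter in the RefSeq table held an E2F site in 6.54%, 4.69% and 6.08% in LIN54-WT, against 21.3%, 19.1% and 25.0% in p130-WT (difference -16.0 percentage points, exact permutation p = 0.1, with 2.95% over all promoters). The CHR letters, which LIN54 itself is known to bind, were in 10.4%, 11.7% and 13.3% in LIN54-WT, against 22.9%, 17.9% and 23.0% in p130-WT (difference -9.46 points, exact permutation p = 0.1, with 15.9% over all promoters). CHR letters were therefore rarer than average at the best LIN54 ends and more frequent than average at the best p130 ends. The second form, TTTAAA, overlapped, at 6.92%, 7.03% and 5.70% in LIN54-WT and 7.36%, 6.23% and 6.35% in p130-WT. CCAAT boxes, which NF-Y is known to bind, were frequent with both, at 65.4%, 63.3% and 71.9% in LIN54-WT and 69.8%, 69.3% and 66.3% in p130-WT (exact permutation p = 0.6, with 39.1% over all). In the best 1000 ends the differences were smaller, at -5.13 points for E2F sites and -4.30 points for CHR letters, and p130-WT replicate 2 held CHR letters in 13.9%, below the average. There CCAAT boxes separated the antibodies, at 63.5%, 60.3% and 65.0% in LIN54-WT and 55.4%, 59.7% and 53.6% in p130-WT (difference 6.70 points, exact permutation p = 0.1 for each of the 3 motifs). Promoters of the 300 best ends were richer in G and C than average, with a median of 60.5% ± 0.167 in LIN54-WT and 61.6% ± 0.536 in p130-WT (SD, n = 3 each), against 56.7% over all. Promoters of genes marked in no library had a median of 47.3% and CHR letters in 22.5%. The part of G and C content in the CHR shares was not tested.

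**Figure D4:**
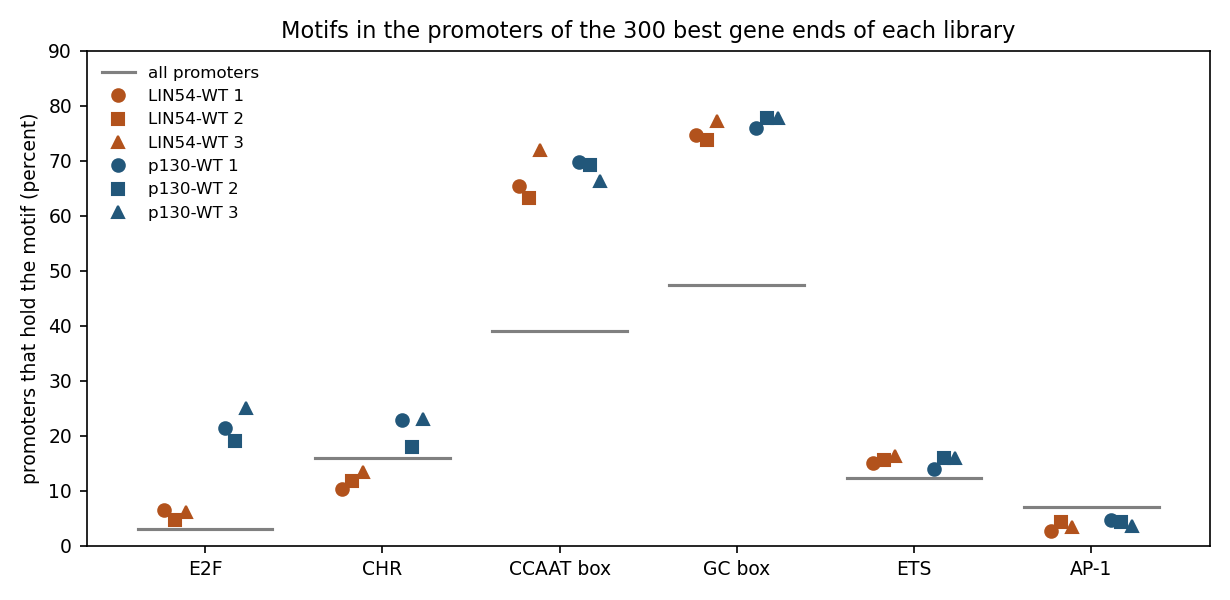
Percent of promoters that hold a motif (vertical axis) among the 300 best gene ends of each library, for 6 motifs; LIN54-WT in orange left of p130-WT in blue, shapes for replicates 1 to 3, and grey lines for all 16457 promoters. E2F sites and CHR letters separate p130 from LIN54, whereas CCAAT, GC box (GGGCGG), ETS (CCGGAAG) and AP-1 (TGANTCA) letters overlap between the antibodies in these 300 ends.

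By set, E2F sites were in 1.28% of promoters of LIN54 alone (3 of 235), in 2.72% of those of p130 alone (4 of 147) and in 7.78% of those of both. Over all promoters the share was 2.95%, so p130 alone was near it. At q of at most 0.01 they were in 2.91% of LIN54 alone (15 of 516), in 6 of 13 promoters of p130 alone and in 25.3% of both. CHR letters were in 10.7% of LIN54 alone, in 3 of 13 of p130 alone and in 24.2% of both, beside 15.9% over all promoters. Leaving out the G2/M and G1/S lists, the set of both at that threshold still held E2F sites in 25.8% (23 of 89) and CHR letters in 19.1% (17 of 89) of promoters. Of G2/M genes with a promoter 70.3% held CHR letters and 6.25% an E2F site, and of G1/S genes 14.9% and 35.8%. The letters CCGGAAG, read by ETS factors, were in 19.6% of LIN54 alone, 10.9% of p130 alone and 21.6% of both, with 12.3% over all promoters.

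The place of the summit also differed. At 848 genes of both antibodies that were marked at the 5′ end in all 6 libraries, the median summit lay at -90, -95 and -84.5 bp from the gene's 5′ end in LIN54-WT, against -72, -60 and -56.5 bp in p130-WT (difference -27 bp, with minus meaning upstream, exact permutation p = 0.1). Gene by gene the shift was not uniform, and at 360 of the 848 (42.5%) LIN54 lay further downstream than p130. At 28 G2/M genes among them the median summit lay at -141.5, -140.5 and -81.5 bp in LIN54-WT, against -8.5, -59 and -48.5 bp in p130-WT (difference -82.5 bp, exact permutation p = 0.1). LIN54 lay further downstream than p130 at 3 of the 28. At 15 G1/S genes the medians were -81, -122 and -117 bp in LIN54-WT, against -60, -46 and -46 bp in p130-WT (difference -56 bp, exact permutation p = 0.1), with LIN54 further downstream at 4 of the 15. The groups did not overlap in any of these comparisons. Summits of the same gene lay 58 to 64 bp apart between LIN54-WT libraries and 94.5 to 104 bp apart between p130-WT libraries (medians), so the shift over all genes was smaller than the scatter at a gene. Widths and numbers of peaks differed between libraries, and their part in the shift was not tested.

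Libraries that had not been used to form the sets were then read at the same genes. Those from Stag2-KO urothelium are another genotype, and the LIN54-KO libraries again belong to batch 1 and the p130-KO libraries to batch 3. The genes of LIN54 alone were marked in 78.2% and 78.8% in the 2 LIN54-KO libraries, above 49.3% and 51.6% of all genes, and in 39.6%, 38.9% and 33.4% in the 3 p130-KO libraries, near the 36.2%, 37.7% and 35.2% of all genes. The genes of p130 alone were marked in 27.4% and 35.5% in LIN54-KO, below all genes, and in 31.2%, 37.6% and 41.9% in p130-KO, near all genes. The genes of both were marked in 93.7% and 94.1% in LIN54-KO and in 66.4%, 64.0% and 58.7% in p130-KO. In the STAG2 libraries, also of batch 1, LIN54 alone was marked in 64.5% and 75.4% in STAG2-WT, above 52.3% and 54.9% of all genes. In STAG2-KO it was marked in 56.7% and 67.6%, above 40.7% and 48.5%. The p130 alone genes were marked in 47.3% and 47.8% in STAG2-WT and in 35.5% and 38.2% in STAG2-KO. As a group, then, LIN54 alone was found again by LIN54, but its excess was not particular to that antibody. p130 alone was found again by p130 about as often as any gene.

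Of the 13 genes of p130 alone at q of at most 0.01, 84.6% were marked in each LIN54-KO library and all 13 in each p130-KO library, though Cdc6 in p130-KO replicate 2 only at its other end. At that threshold itself, LIN54-KO libraries marked 61.5% and 69.2% of them, beside 22.5% and 20.9% of all genes. The p130-KO libraries marked 100%, 69.2% and 69.2%, beside 2.24%, 1.14% and 1.17% of all genes. These genes were thus also LIN54 genes in most cases there. Mcm7 had p130-KO folds of 17.4, 9.48 and 11.2, with LIN54-KO summits again 962 and 923 bp into the gene. Mcm6 had no LIN54-KO summit within 500 bp of the marked end, the nearest lying at -2758 and 875 bp, and p130-KO folds of 5.97, 3.78 and 4.62. Rrm2 had LIN54-KO folds of 2.55 and 2.96 and p130-KO folds of 3.96, 5.02 and 2.87, so p130 alone did not hold for it there. Mark2 had LIN54-KO folds of 15.3 and 38.5, and p130 peaks of 2.26 and 2.97 in p130-KO replicates 2 and 3. The 12 strictest genes of LIN54 alone were all marked in both LIN54-KO libraries and in 41.7%, 50% and 58.3% in p130-KO.

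**Figure D5:**
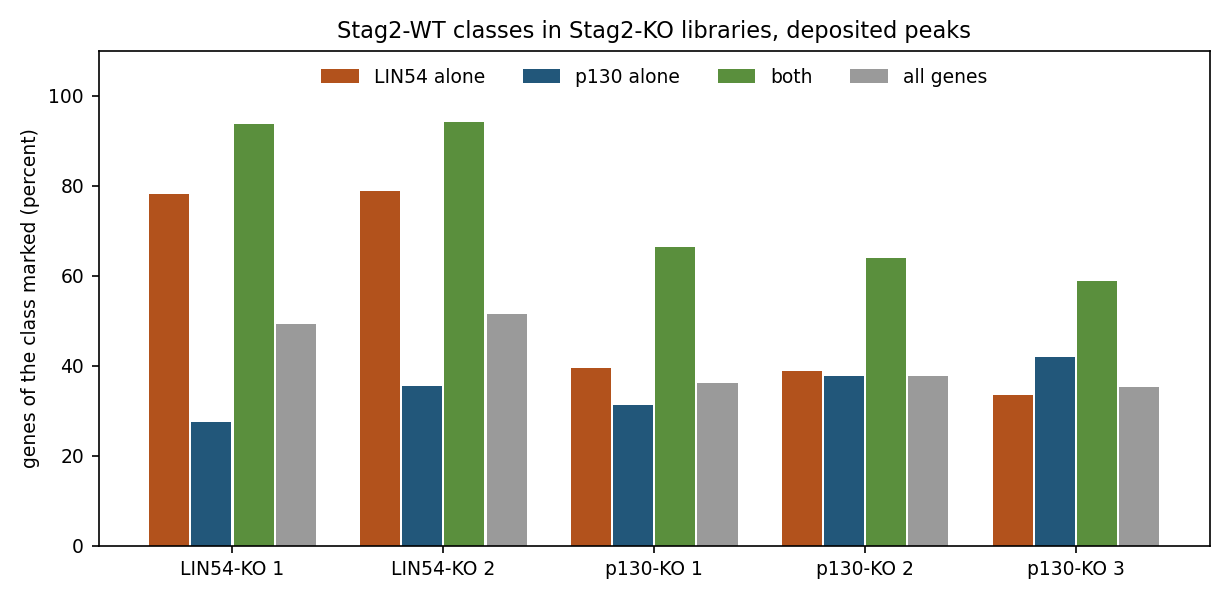
Percent of the genes of each Stag2-WT set marked in the 2 LIN54-KO and 3 p130-KO libraries (horizontal axis), with bars for LIN54 alone, p130 alone, both and all genes. LIN54 alone stands above all genes in LIN54-KO (78.2% and 78.8%, against 49.3% and 51.6%), and p130 alone stands near all genes in p130-KO.

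The list contrasts were partly seen again in Stag2-KO. G1/S genes had log2 odds ratios of 1.52 and 1.97 in LIN54-KO and 2.77, 2.39 and 2.19 in p130-KO, again without overlap. Ribosomal protein genes had 3.42 and 3.56 in LIN54-KO and 1.41, 1.40 and 0.04 in p130-KO, also without overlap. G2/M genes had 2.28 and 3.36 in LIN54-KO and 3.19, 2.10 and 2.35 in p130-KO, where the antibodies overlapped and the mean difference was 0.27 in favour of LIN54. Among the 300 best ends, LIN54-KO held 8 and 9 G2/M and 4 and 6 G1/S genes, against 22, 17 and 23 and 23, 27 and 21 in p130-KO. These KO values were not tested.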

How the data were processed

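Peaks were those the authors deposited, 1 list per library, with no pooled list. The submitters' processing notes name bcl2fastq, Bowtie2, MACS2 and the build mm10. Versions, settings and any control library are not given in the sources used here. In the deposited lists, the fold is enrichment at the summit over a background. Whether that background came from the same library or from a control library is not given. The p and q are given as −log10 values, and the score is the whole part of 10 times −log10 p. The authors' summit offset was added to the peak start. Folds describe within a library and were not tested between antibodies.

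A summit within 500 bp of either end marked a gene (RefSeq table of GRCm38.p6, 20665 protein-coding genes, chromosomes 1 to 19). Log2 odds ratios had 0.5 added to each count. Antibodies were compared by two-sided exact permutation over the 20 splits of 3 against 3 libraries (smallest p 0.1), with Benjamini-Hochberg adjustment over 14 lists, and the calculation was tested on simulated data. Named genes were the 8 best ranked by fold per set, up to 5 members of each cell cycle list and up to 3 of each other list per set, and Lin54 and Rbl2; others are said to be chosen later. The members and lists were chosen with earlier results of these data known. Alternatives were q of at most 0.01, the 20000 best peaks, windows of 250 and 1000 bp, at least 2 of 3 libraries, a strict rule, leaving out each library and a replicate block. A peak anywhere in the window, the RefSeq start alone and the 300 and 1000 best ends were added after seeing the data. Promoters were available for 79.6% of genes. Tables were handled with pandas 2.3.3 under Python 3.11.15, tests used SciPy 1.17.1 with NumPy 2.4.6, and figures were drawn in Matplotlib 3.10.9. The read depth is unknown. Some list members are not reported here by name.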

Additional observations from a re-analysis of the deposited data

How the results depend on the processing

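The sizes of the sets moved by over 1.5 times under most choices. LIN54 alone (293 genes) held 614 at q of at most 0.01, 570 with the 20000 best peaks, 174 with a window of 1000 bp, 1018 with at least 2 of 3 libraries, 12 under the strict rule and 508 to 952 when each library was left out in turn. p130 alone (186) held 13 at q of at most 0.01, 18 with the 20000 best peaks, 102 with a window of 250 bp, 1125 with at least 2 of 3 libraries, 2 under the strict rule, 99 at the RefSeq start only and 336 to 562 with a library left out. Within that limit were LIN54 alone with 250 bp, a peak anywhere and the RefSeq start only (273 to 329), and p130 alone with 1000 bp and a peak anywhere (200 and 186). Both antibodies (1759) held 122, 284, 608 (250 bp), 4122 (1000 bp), 5885 (2 of 3) and 1062 (RefSeq start only). Leaving out a library eases the demand for a mark in all or none, which enlarges the sets by construction.

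The difference in log2 number of peaks (-0.16) was 2.91 at q of at most 0.01 and -0.252 to 0.00632 with a library left out, turning without p130-WT replicate 1. The difference in percent of peaks at gene ends (0.487) was -17.6 at q of at most 0.01. The G2/M minus G1/S contrast (-0.02) had no stable sign, with 0.765 at q of at most 0.01, 0.719 with the 20000 best peaks, 0.313 and 0.192 with windows of 250 and 1000 bp, 0.376 with a peak anywhere, 0.252 at the RefSeq start only and -0.201 to 0.236 with a library left out (0.0623 without LIN54-WT replicate 3). The cause was not tested.

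The odds ratio differences kept their sign in all 13 settings, though not always the separation of the libraries. The replicate block is among these settings and cannot change a difference, and those with a library left out reuse the same libraries. The differences ranged over -2.09 to -0.501 for G2/M, -2.85 to -0.638 for G1/S, 0.582 to 1.41 for ribosomal protein and 0.163 to 1.75 for immediate early genes. The deviations of same-numbered libraries had correlations of -0.00382, 0.0273 and 0.0159, beside -0.0393 to 0.0243 for libraries with different numbers. These values show no pairing by number. They cannot tell whether same-numbered libraries share an animal, which the labels do not say. With the replicate block, exact permutation p was 0.75 for the number of peaks, 0.25 for the percent at gene ends and each of those 4 lists (0.25 is the smallest possible) and 1 for the contrast, and the differences were the same, such as -0.76 for G2/M.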
